A study of Mus musculus with 15 samples.

Results

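Intercalated cells of the renal collecting duct set the final acid and bicarbonate content of urine, and the genes described here are 9 that carry out or control that task. They are Slc26a4, Slc4a9, Slc4a1, Atp6v1b1, Atp6v1g3, Atp6v0d2, Atp6v0a4, Car2 and Foxi1, chosen by name and matched to the deposited Ensembl transcripts through GENCODE M21. Of these 9 genes, 8 had a value in every mouse, among 13933 genes that did. For the ninth, Slc4a1, only 1 transcript was listed, a noncoding one that lacked a value in some mice. The value of a gene is the sum of the FPKM (fragments per kilobase of transcript, scaled to the mapped fragments of the library) of its transcripts, so levels can be set side by side per length.

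RNA was sequenced from the kidneys of 15 male, wild-type C57BL/6 mice of the same age, 5 in each of 3 groups. Control mice received saline from an implanted pump, Ang II mice received angiotensin II at 500 ng/kg/min for 28 days, and Ang II + QDG mice received the same infusion with Qingda granule (QDG), a Chinese herbal formula, at 1.145 g/kg/d by mouth. The oral vehicle of the Control and Ang II mice is saline in the labels and water in the methods. No group received QDG without Ang II, so its effect without the infusion was not measured. The 2 questions were how 28 days of Ang II moved these genes and whether QDG moved them in infused mice. The first is answered by Ang II vs. Control and the second by Ang II + QDG vs. Ang II, named below the Ang II comparison and the QDG comparison. Whole kidney was sampled, in which intercalated cells are a small minority, and in such bulk tissue fewer cells of a type and less RNA per cell cannot be told apart.

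Intercalated cells come in types. Type A cells secrete protons through the vacuolar H+-ATPase at the apical membrane and return bicarbonate to blood through the anion exchanger AE1 (Slc4a1). Type B cells do the reverse, with the chloride/bicarbonate exchanger pendrin (Slc26a4) at the apical and AE4 (Slc4a9) at the basolateral membrane, and pendrin is also a route of chloride reabsorption known to respond to angiotensin II and aldosterone. Carbonic anhydrase II (Car2) supplies protons and bicarbonate in both types, and the forkhead factor Foxi1 is required for intercalated cell identity and for transcription of pump subunits and exchangers.

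The promoters of 5 of the 9 genes could be read from RefSeq (assembly GRCm38.p6), and 4 of them are shown: those of both genes that passed a test below, and of both pump subunits whose window held a forkhead core. Each covers the 250 bases before the RefSeq start, 5′ to 3′ on the strand of the gene, with forkhead core letters TGTTTA or TGTTTG, on either strand, in capitals. The Slc26a4 window is chr12:31559985-31560234 (minus strand), that of Atp6v0a4 is chr6:38124587-38124836 (minus strand), that of Atp6v1b1 is chr6:83742767-83743016 (plus strand), and that of Atp6v1g3 is chr1:138273488-138273737 (plus strand).
Slc26a4: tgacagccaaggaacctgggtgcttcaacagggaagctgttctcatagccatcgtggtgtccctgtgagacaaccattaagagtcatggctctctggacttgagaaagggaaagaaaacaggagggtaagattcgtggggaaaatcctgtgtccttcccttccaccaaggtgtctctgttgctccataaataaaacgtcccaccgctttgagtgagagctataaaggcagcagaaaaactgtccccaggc
Atp6v0a4: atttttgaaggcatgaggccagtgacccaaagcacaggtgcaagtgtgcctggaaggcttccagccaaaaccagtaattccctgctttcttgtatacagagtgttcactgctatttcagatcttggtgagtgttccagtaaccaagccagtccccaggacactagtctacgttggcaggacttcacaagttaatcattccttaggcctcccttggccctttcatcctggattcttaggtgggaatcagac
Atp6v1b1: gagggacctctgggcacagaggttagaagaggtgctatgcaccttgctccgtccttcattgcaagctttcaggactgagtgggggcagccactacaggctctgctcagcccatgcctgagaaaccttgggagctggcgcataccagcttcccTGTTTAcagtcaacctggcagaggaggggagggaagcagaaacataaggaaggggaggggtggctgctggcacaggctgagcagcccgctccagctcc
Atp6v1g3: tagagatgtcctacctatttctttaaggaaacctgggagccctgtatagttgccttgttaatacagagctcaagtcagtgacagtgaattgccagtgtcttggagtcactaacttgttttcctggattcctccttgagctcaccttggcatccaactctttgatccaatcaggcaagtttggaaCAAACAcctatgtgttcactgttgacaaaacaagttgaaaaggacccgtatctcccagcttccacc
Atp6v1b1 held TGTTTA 98 bases before the start and Atp6v1g3 held CAAACA, the reverse complement of TGTTTG, 66 bases before it. Of the 5 promoters, 2 held a match, against 25.3% of all 32851 windows of this length, and the fifth, that of Foxi1, held none. A match describes letters in a window, not a bound site.

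Kidney identity was checked first. All 8 kidney markers, Umod, Slc12a1, Slc12a3, Lrp2, Slc34a1, Nphs1 and Aqp2 among them, were tested genes, and their summed level ran from 3323 to 3962 FPKM in Control, 3793 to 4290 in Ang II mice and 3942 to 4226 in Ang II + QDG mice. The depth implied by the values was 68900000 to 81300000 fragments per mouse, and 68900000 to 76100000 in the Ang II + QDG group. Transcripts assembled by the authors without a gene name held 9.57% to 11.9% of the FPKM and could not be assigned to any gene here. Differences below were tested with limma on log2(FPKM + 1), with all 15 mice in the fit and Benjamini-Hochberg adjustment over 12366 genes. A gene is called where the adjusted p is under 0.05. The p-values set the difference between groups against the spread between these mice within groups, pooled over the 3 groups and moderated over all genes. Of the 8 kidney markers 1 was called higher and none lower in the Ang II comparison, against 4.95% of all genes called higher, and none was called in the QDG comparison, against 1.81%. In each of these comparisons 3 of the 8 had an unadjusted p under 0.05, against 22.7% and 16.4% of all genes.

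Pendrin and the a4 subunit of the pump were the 2 of 8 genes called in the Ang II comparison, both higher. Atp6v0a4 was called again in the QDG comparison, lower, and averaged 4.54 FPKM in Ang II + QDG mice, near the 4.86 of Control. Slc26a4 did not pass in the QDG comparison and averaged 35.9 FPKM, near the 35.3 of Ang II mice. Whether the responses of both genes to QDG differ was not tested. Among all genes, 4.95% were called higher in the Ang II comparison and 5.94% in either direction. The other 6 genes did not pass the test in any comparison, and no gene of the set passed it in Ang II + QDG vs. Control, where 0.129% of all genes did. In that comparison 2 of the 8, Slc26a4 and Atp6v1b1, had an unadjusted p under 0.05, against 14.4% of all genes.

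The split of the calls depended on scaling, so direction is given with its limits. Of the 735 genes called in the Ang II comparison, 612 were higher and 123 lower, while median scaling gave 201 higher and 271 lower, and quantile normalization 227 and 266. Of the 224 called in the QDG comparison, 65 were higher and 159 lower, against 72 and 112 with median scaling and 97 and 97 with quantile normalization. All 8 genes had a fitted difference above 0 in the Ang II comparison, as did 64.8% of all genes, but with median scaling Car2 (-0.01) and Atp6v0d2 (-0.05) turned below 0, and Atp6v0d2 also with quantile normalization (-0.04). The median log2 fold change of the 8 was 0.23, against 0.08 over all genes tested.

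**Figure D1:**
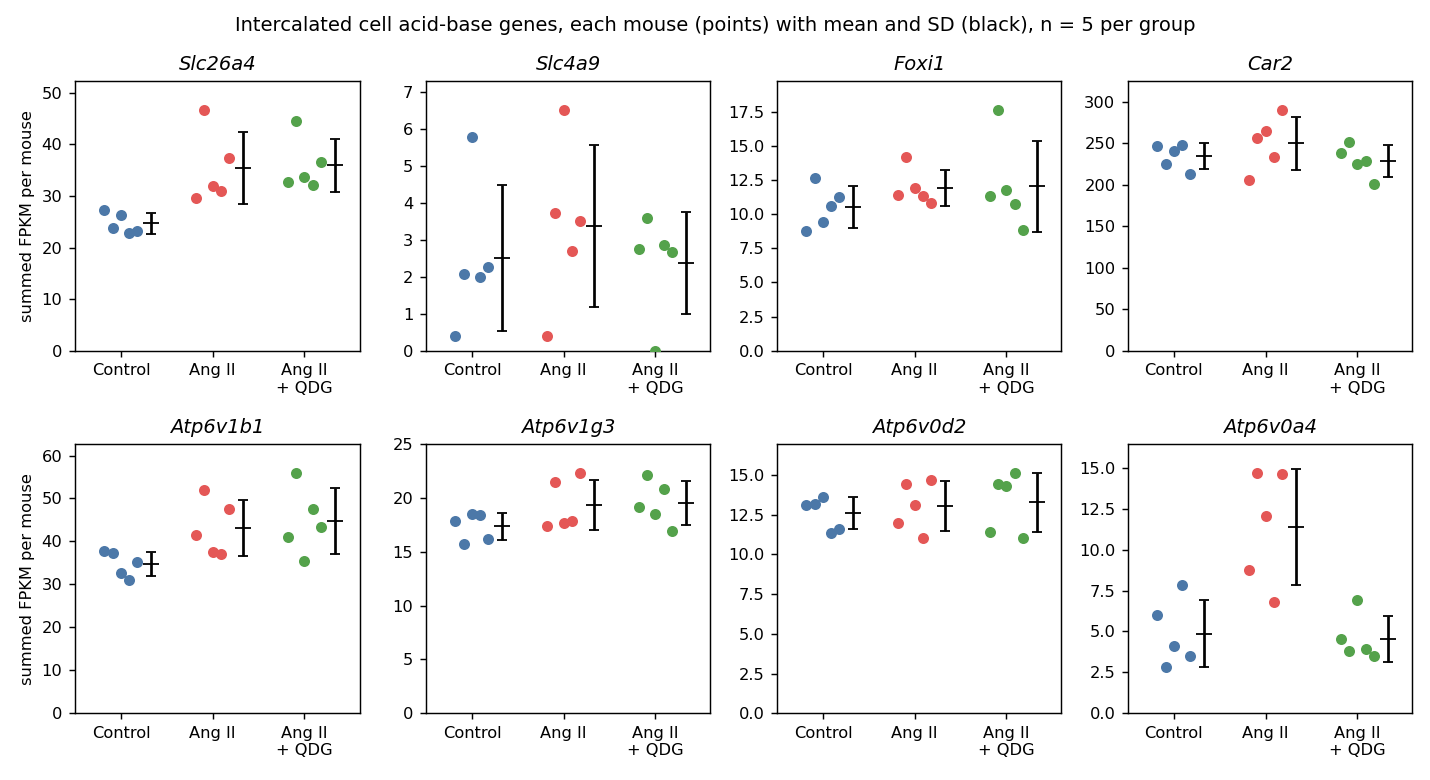
Summed FPKM (vertical axes, starting at 0) of the 8 genes with values, in each of 5 Control, 5 Ang II and 5 Ang II + QDG mice (coloured points, in replicate order), with the group mean and SD in black. All Ang II and Ang II + QDG points of Slc26a4 lie above the Control points, whose highest is 27.2, while Atp6v0a4 has its highest points in the Ang II group, at 6.81 to 14.7, which overlaps both others.

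Pendrin is encoded by Slc26a4 on chromosome 12 (31519827 to 31559969, minus strand), represented by a single coding transcript, ENSMUST00000001253. Its level was 27.2, 23.7, 26.4, 22.8 and 23.2 FPKM in the 5 Control mice. In Ang II mice it was 29.6, 46.7, 32.01, 31.0 and 37.5 FPKM, and in Ang II + QDG mice 32.7, 44.5, 33.8, 32.2 and 36.5 FPKM. The lowest mouse of either infused group stood above the highest Control mouse, while the infused groups covered almost the same range.

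The group means of Slc26a4 were 24.7 ± 2.01 FPKM in Control, 35.3 ± 6.996 in Ang II mice and 35.9 ± 5.09 in Ang II + QDG mice (SD, n = 5 each). The Ang II comparison gave a log2 fold change of 0.49 (SE 0.12, 95% interval 0.23 to 0.74, adjusted p = 0.0312), a 1.4-fold rise in FPKM + 1. Among all genes, 6.49% had every Ang II mouse above every Control mouse. The call was lost, with the rise between 0.38 and 0.52, when any of the 5 Control mice or Ang II replicate 2 or 5 was left out (adjusted p 0.0502 to 0.0723), and with median scaling (0.0889), quantile normalization (0.0921) or these groups alone in the fit (0.0562).

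QDG left Slc26a4 without a detectable shift in infused mice. The QDG comparison gave 0.03 (SE 0.12, 95% interval -0.22 to 0.29, adjusted p = 0.93). Against Control, Ang II + QDG mice were higher by 0.52 (SE 0.12, unadjusted p = 0.000704), with groups that did not overlap, a pattern found for 2.78% of all genes. That difference did not pass the adjustment over all genes (adjusted p = 0.0964), although it was as large as the called one. Both comparisons with Control use the same 5 Control mice.

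AE4, the basolateral exchanger of type B cells, is encoded by Slc4a9 on chromosome 18 (36528157 to 36541293, plus strand, transcript ENSMUST00000074298). It was the lowest gene of the set and the least even among mice. Control mice had 0.404, 2.08, 5.79, 2.002 and 2.26 FPKM, Ang II mice 0.395, 3.72, 6.52, 2.70 and 3.52, and Ang II + QDG mice 2.75, 3.60, 0.00535, 2.86 and 2.67. Each group held a mouse at or under 0.404 FPKM, and the groups overlapped almost fully.

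The near-absent value in Ang II + QDG replicate 3 corresponds to 1 fragment, in a library where Slc26a4 stood at 33.8 FPKM. Slc4a9 did not pass the test in the Ang II comparison (0.31, SE 0.51, 95% interval -0.79 to 1.40, adjusted p = 0.771) or in the QDG comparison (-0.35, 95% interval -1.45 to 0.74). Both intervals hold changes as large as the 0.49 estimated for pendrin, so that a change of that size was not detectable.

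AE1 of type A cells (Slc4a1, chromosome 11) could not be compared. GENCODE M21 gives it 5 transcripts, of which ENSMUST00000149993, a noncoding processed transcript of 357 bases (102359082 to 102360568, minus strand), was listed for the Ang II and Ang II + QDG mice. It read 0.0353, 2.19 and 0.0354 FPKM in Ang II replicates 1 to 3 and was listed at 0 in replicates 4 and 5. In Ang II + QDG mice it read 2.50 in replicate 2, 4.43 in replicate 3 and 0.04 in replicate 5, and was listed at 0 in the other two. Levels above 1 FPKM in 3 of 10 mice describe this short transcript only, and no coding Ensembl transcript of Slc4a1 was listed for any mouse. The erythroid form of AE1 comes from the same gene. None of the 5 erythroid markers measured of 9 was called in the Ang II or the QDG comparison, where 3 and 2 had an unadjusted p under 0.05, against 22.7% and 16.4% of all genes. In Ang II + QDG vs. Control 1 was called higher and all 5 had an unadjusted p under 0.05 (median log2 fold change 1.17), against 0.129% of all genes called and 14.4% under that p. The summed level of the 5 (Hbb-bs, Hbb-bt, Hba-a1, Hba-a2 and Alas2) was 545 to 1362 FPKM in Control, 1115 to 1943 in Ang II mice and 1557 to 2818 in Ang II + QDG mice, so that the Ang II range overlapped both others while those of Control and Ang II + QDG did not overlap.

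Of those markers, the most abundant by the mean over all 15 mice were Hbb-bs (382, 520 and 741 FPKM in the 3 groups in the order Control, Ang II, Ang II + QDG) and Hba-a2 (195, 384 and 461), neither called in any comparison. Hba-a1, named after its values were seen, averaged 207, 330.3 and 480.04 FPKM, above Hba-a2 in Control and in Ang II + QDG mice, and was higher in Ang II + QDG vs. Control (1.17, SE 0.19, adjusted p = 0.0257). Near-identical globin copies share reads, so single globin values are uncertain, and the defining red-cell membrane genes Epb42 and Rhag had no value in all mice.

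The proton pump has a peripheral V1 part that hydrolyses ATP and a membrane V0 part that carries protons, and 4 of its subunits have forms used in intercalated cells. Which cells of the kidney the RNA of these forms came from was not measured. Atp6v1b1 encodes the B1 subunit of V1, whose loss causes renal tubular acidosis with deafness (chromosome 6, 83742990 to 83758855, for its main transcript ENSMUST00000006431). It stood at 37.7, 37.2, 32.7, 31.0 and 35.1 FPKM in Control mice. Ang II mice had 41.5, 52.1, 37.7, 37.1 and 47.4 FPKM, and Ang II + QDG mice 40.9, 56.0, 35.5, 47.5 and 43.4. Most infused mice were above the Control range, and the groups overlapped at their edges.

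The means of Atp6v1b1 were 34.8 ± 2.90, 43.2 ± 6.46 and 44.7 ± 7.67 FPKM (SD, n = 5 each). The log2 fold change was 0.30 in the Ang II comparison (SE 0.12, unadjusted p = 0.0259, adjusted p = 0.156). It was 0.34 between Ang II + QDG and Control mice (unadjusted p = 0.0124, adjusted p = 0.214), so neither passed. The QDG comparison gave 0.04 (95% interval -0.21 to 0.30). Unadjusted p-values under 0.05 were found for 3 of the 8 genes in the Ang II comparison, against 22.7% of all genes.

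Atp6v1g3 encodes the kidney form of the G subunit of V1 (chromosome 1, 138273738 to 138289462). Its level ran from 15.7 to 18.5 FPKM in Control, 17.4 to 22.3 in Ang II mice and 16.9 to 22.1 in Ang II + QDG. The groups overlapped, and the Ang II comparison gave 0.14 (95% interval -0.05 to 0.34, adjusted p = 0.371).

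Atp6v0d2 encodes the d2 subunit of V0, which is also abundant in osteoclasts (chromosome 4, 19876841 to 19922605). It had the smallest difference of the set in the Ang II comparison, with means of 12.6 ± 1.00 FPKM in Control, 13.0 ± 1.57 in Ang II mice and 13.3 ± 1.88 in Ang II + QDG mice (SD, n = 5 each). The Ang II comparison gave 0.05, with a 95% interval of -0.17 to 0.26 that leaves out a rise as large as the 0.49 estimated for pendrin, and the QDG comparison gave 0.02 (-0.20 to 0.24).

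Atp6v0a4 encodes the a4 subunit of V0, the form of the proton path used in the collecting duct, and its loss causes distal renal tubular acidosis. Control mice had 6.01, 2.86, 4.09, 7.82 and 3.52 FPKM. Ang II mice had 8.77, 14.7, 12.1, 6.81 and 14.6 FPKM, and Ang II + QDG mice 4.56, 3.81, 6.93, 3.91 and 3.50. Of the 5 Ang II mice, 4 were above every mouse of the other groups, and Ang II replicate 4 lay inside both ranges.

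The means of Atp6v0a4 were 4.86 ± 2.03 FPKM in Control, 11.4 ± 3.52 in Ang II mice and 4.54 ± 1.39 in Ang II + QDG mice (SD, n = 5 each). It rose in the Ang II comparison by 1.09 (SE 0.25, 95% interval 0.55 to 1.64, adjusted p = 0.0241) and fell by 1.14 in the QDG comparison (SE 0.25, 95% interval of the difference -1.68 to -0.60, adjusted p = 0.0385). In the latter comparison it was the 1 of 8 genes called, where 1.81% of all genes were called and 1.29% were lower. It was also the 1 of 8 with an unadjusted p under 0.05, against 16.4% of all genes. Both contrasts use the same 5 Ang II mice. Ang II + QDG vs. Control gave -0.05 (95% interval -0.59 to 0.50).

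Both calls were narrow. The rise was lost without Control replicate 3 or 5 or Ang II replicate 2 or 5 (adjusted p 0.0535 to 0.0592, log2 fold change 1.00 to 1.06). The fall was lost without Control replicate 3, Ang II replicate 2, 3 or 5, or Ang II + QDG replicate 1, 2, 4 or 5 (adjusted p 0.0525 to 0.0941, log2 fold change -1.15 to -1.04). No such omission reversed either direction. The rise also missed the threshold with median scaling (adjusted p = 0.0505), quantile normalization (0.0509) or 2 groups in the fit (0.054), and the fall with median scaling (0.0508) or 2 groups (0.0584). Both were also lost with coding transcripts or the most abundant transcript alone, as given with the transcripts.

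**Figure D2:**
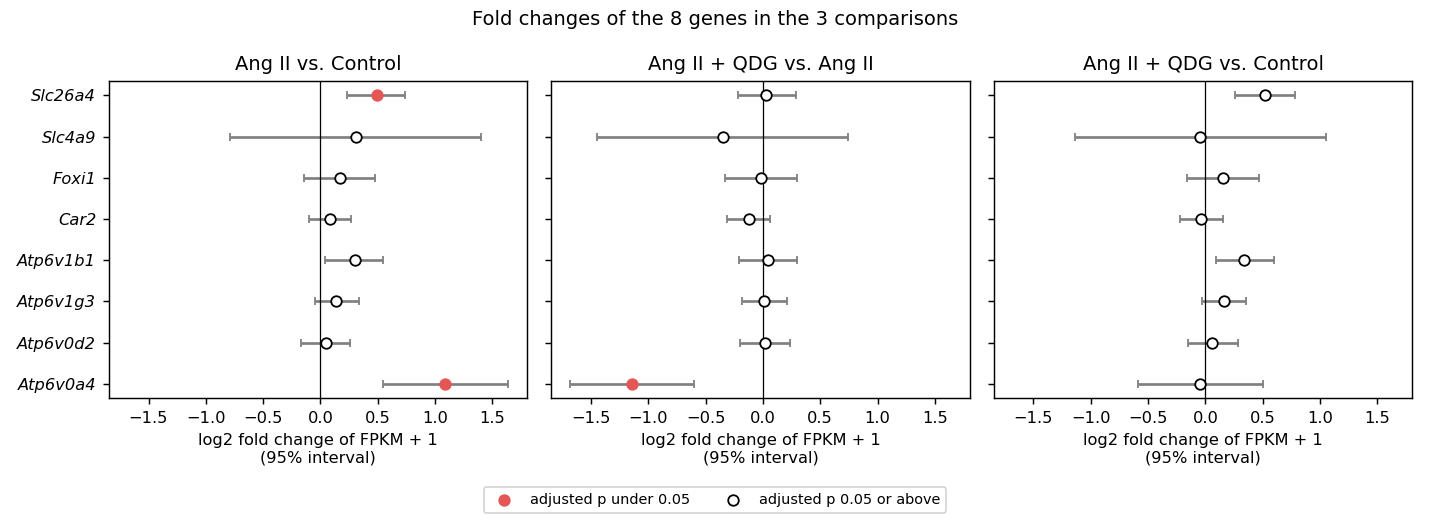
Log2 fold change of FPKM + 1 (horizontal axes) with its 95% interval for the 8 genes in each comparison. Filled red points passed an adjusted p of 0.05: Slc26a4 (0.49) and Atp6v0a4 (1.09) in the Ang II comparison and Atp6v0a4 (-1.14) in the QDG comparison. The widest intervals belong to Slc4a9.

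The transcripts of Atp6v0a4 showed how this gene-level value was built. ENSMUST00000040259, coding and spanning 38048483 to 38124586 on chromosome 6 (minus strand), was the most abundant of the 5 in 14 of 15 mice. In Ang II replicate 5 it read 0.609 FPKM, while a second coding transcript with a start inside the gene, ENSMUST00000114908, read 10.8 there and at most 0.418 in any other mouse. Both coding forms summed to 3.35 ± 2.09 FPKM in Control, 8.71 ± 2.91 in Ang II mice and 2.83 ± 1.67 in Ang II + QDG mice (SD, n = 5 each). With coding transcripts only, an alternative chosen after seeing the data, the estimates were 1.23 and -1.37 with adjusted p = 0.0632 and 0.0629.

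The most abundant transcript alone gave 0.66 in the Ang II comparison (adjusted p = 0.523 over 12129 genes so represented) and -0.86 in the QDG comparison (adjusted p = 0.46). The 3 retained-intron transcripts together averaged 1.52 ± 0.214 FPKM in Control, 2.67 ± 0.851 in Ang II mice and 1.71 ± 0.530 in Ang II + QDG mice (SD, n = 5 each), with overlapping groups. Of the 19 transcripts of the 8 genes, 13 were tested singly, over 28812 transcripts in all, and none was called by limma. In the Ang II comparison 4 of the 13 had an unadjusted p under 0.05, against 15.9% of all transcripts with 0.691% called. In the QDG comparison it was 1 of 13, against 11.3% with 0.0972% called, and between Ang II + QDG and Control mice it was 3 of 13, against 10.0% with 0.0243% called.

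**Figure D3:**
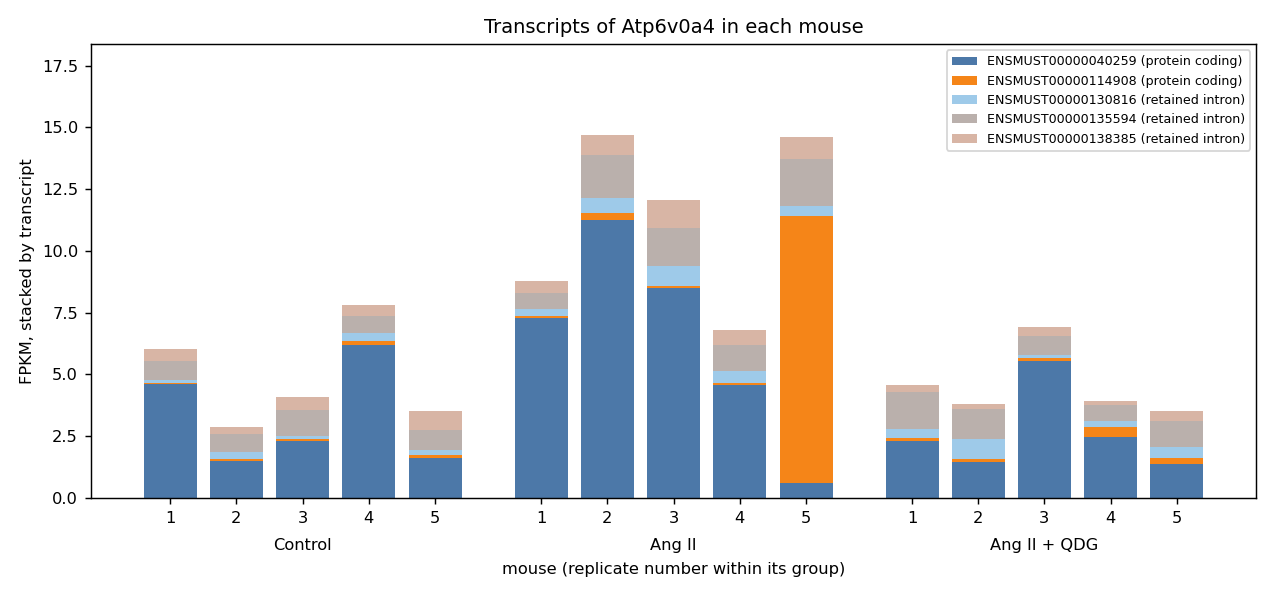
FPKM of the 5 measured transcripts of Atp6v0a4 stacked for each mouse (bars from 0, replicate numbers within groups below). The dark blue coding transcript is the most abundant in every mouse but Ang II replicate 5, where the orange coding transcript reads 10.8 FPKM.

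Carbonic anhydrase II was the most abundant gene of the set. Car2 (chromosome 3, 14886428 to 14900770, for its main transcript) stood at 247, 226, 241, 249 and 213 FPKM in Control. Ang II mice had 206, 257, 265, 233 and 290.4 FPKM, and Ang II + QDG mice 238, 252, 225, 229 and 201. The Ang II group held both a mouse below and several above the Control range.

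Car2 did not pass the test in the Ang II comparison (0.08, 95% interval -0.10 to 0.27, adjusted p = 0.613) or in the QDG comparison (-0.12, 95% interval -0.31 to 0.06, adjusted p = 0.521). It is also made in red-cell precursors and in other tubule segments. Within it, a short coding transcript of 587 bases, ENSMUST00000192609, read 2.11 to 3.17 FPKM in Control and 3.36 to 5.56 in Ang II mice, with no overlap (0.52, SE 0.14, unadjusted p = 0.00291, adjusted p = 0.0961 over all transcripts). It read 2.51 to 3.64 FPKM in Ang II + QDG mice. Every Ang II mouse lying above every Control mouse was seen for 4.32% of all transcripts.

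Foxi1, the transcription factor of intercalated cells, is on chromosome 11 (34204338 to 34208089, minus strand). Control mice had 8.76, 12.7, 9.45, 10.6 and 11.2 FPKM, Ang II mice 11.4, 14.2, 11.9, 11.3 and 10.8, and Ang II + QDG mice 11.3, 17.6, 11.7, 10.7 and 8.82. The groups overlapped, with Ang II + QDG replicate 2 the highest mouse of all. The Ang II comparison gave 0.17 (SE 0.15, 95% interval -0.14 to 0.48, adjusted p = 0.533) and the QDG comparison gave -0.02 (95% interval -0.33 to 0.30).

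Per length, the order of Control means was Car2, Atp6v1b1, Slc26a4, Atp6v1g3, Atp6v0d2, Foxi1, Atp6v0a4 and Slc4a9, from 235 to 2.51 FPKM. Neighbours in this order did not overlap among Control mice, other than Atp6v0d2 with Foxi1 and Atp6v0a4 with Slc4a9. In Ang II mice Atp6v0a4 (11.4 FPKM) stood beside Foxi1 (11.9).

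Some mice ran high across the set. Ang II replicate 2 was the highest of its group for 4 of the 8 genes (Slc26a4, Atp6v1b1, Atp6v0a4 and Foxi1), and Ang II + QDG replicate 2 for 6 (Slc26a4, Slc4a9, Atp6v1b1, Atp6v1g3, Car2 and Foxi1). Their summed levels without Car2 were 167 and 162 FPKM, against 118 to 151 in the other 4 Ang II mice and 121 to 133 in the other 4 Ang II + QDG mice. Without Car2 all 10 lay above the 103 to 111 of Control mice, but with it the groups overlapped. The sums of all 8 genes were 316 to 358 FPKM in Control, 328 to 441 in Ang II mice and 324 to 414 in Ang II + QDG mice. How often sums of other genes separate in this way was not counted. Ang II + QDG replicate 5 was the lowest of its group for 5 of the 8. The spread of Slc26a4 among mice was 8.15% of its mean in Control, 19.8% in Ang II mice and 14.2% in Ang II + QDG mice.

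The genes whose level across the 15 mice was most like that of Slc26a4 were Hhatl (Pearson r = 0.893), Pisd-ps1 (0.888), Podxl (0.870), BC017158 (0.870) and Scg5 (0.865). For Foxi1 they were Cacfd1 (0.891), Cerk (0.864), Mpp2 (0.855), Mef2d (0.822) and Picalm (0.819). Podxl encodes a podocyte surface protein, and no gene of the acid-base set was among them. These are the highest of many correlations, over 15 mice that share 3 treatments and their libraries, and are given as a description.

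Each intercalated cell subunit has a more widely expressed counterpart, which puts the 4 pump genes in context. Atp6v1b2, the B2 form, stood at 151 ± 5.94 FPKM in Control, 151 ± 18.7 in Ang II mice and 135 ± 6.16 in Ang II + QDG mice (SD, n = 5 each). The B1 share of the B-subunit sum was 18.7% ± 1.204, 22.3% ± 2.53 and 24.7% ± 3.25 in the 3 groups (SD, n = 5 each). The a4 share of the a-subunit sum (Atp6v0a1, Atp6v0a2, Tcirg1 and Atp6v0a4) was 15.5% ± 6.70, 25.8% ± 5.54 and 14.96% ± 4.97. The d2 share of the d-subunit sum stayed between 15.7% and 16.8% in group means.

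For the G subunit it was the general form that passed the test. Atp6v1g1 stood at 116, 119, 135, 148 and 129 FPKM in Control, 149.9, 166, 164, 155 and 170.5 in Ang II, and 153, 126, 122, 129.7 and 119 in Ang II + QDG. Every Ang II mouse was above every Control mouse, a pattern found for 6.49% of all genes. It rose in the Ang II comparison (0.32, SE 0.08, adjusted p = 0.0299), and stood at -0.31 in the QDG comparison (adjusted p = 0.0568). The G3 share was lowest in Ang II mice, at 10.7% ± 0.792, against 11.9% ± 0.905 in Control and 13.1% ± 1.44 in Ang II + QDG mice (SD, n = 5 each). Atp6v0d1 (log2 fold change -0.03) and Atp6v0a1 (0.41, adjusted p = 0.319) did not pass in the Ang II comparison.

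Of 21 other pump subunits and accessory genes, 19 were tested, of which 2 were called higher and none lower in the Ang II comparison (median log2 fold change 0.08, equal to that of all genes), against 4.95% of all genes called higher, and 6 had an unadjusted p under 0.05, against 22.7%. Beside Atp6v1g1 this was Atp6v0b, part of the proton-binding ring of V0, at 104 to 123 FPKM in Control, 141 to 181 in Ang II mice and 113 to 142 in Ang II + QDG mice. Its rise was 0.45 (SE 0.08, adjusted p = 0.0084), and its value in the QDG comparison was -0.32 (adjusted p = 0.0522). With coding transcripts only the value was 0.26 (adjusted p = 0.172), and with the most abundant transcript 0.18 (adjusted p = 0.351).

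Atp6v1a, the catalytic A subunit, was the 1 of 19 called in the QDG comparison, against 1.29% of all genes called lower, and 5 of the 19 had an unadjusted p under 0.05, against 16.4%. It stood at 145 to 164 FPKM in Control, 163 to 190 in Ang II mice and 132 to 148 in Ang II + QDG mice, so that every QDG-treated mouse was below every Ang II mouse, a pattern found for 3.44% of all genes. It fell by 0.32 (SE 0.05, adjusted p = 0.015). The call was lost with quantile normalization (-0.23, adjusted p = 0.0558) and with the most abundant transcript alone (-0.76, adjusted p = 0.559). The median of the 19 was -0.13 against -0.02 over all genes. Atp6v1c2, the C2 form enriched in kidney, lung and placenta and named here after its values were seen, had means of 7.27, 11.2 and 11.3 FPKM in the 3 groups, and did not pass in the Ang II comparison (0.64, SE 0.26, adjusted p = 0.162).

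**Figure D4:**
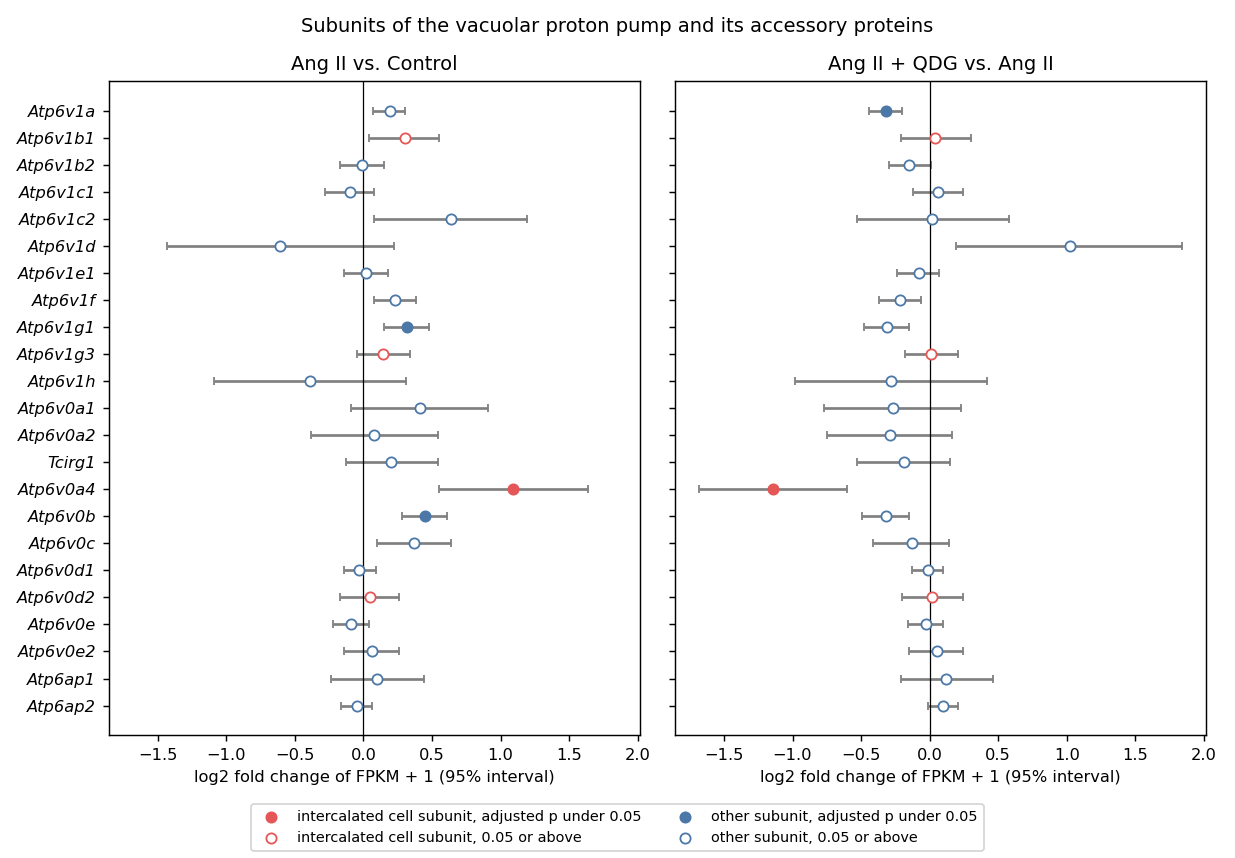
Log2 fold change of FPKM + 1 with its 95% interval for 4 intercalated cell subunits (red) and 19 other pump genes (blue), in the Ang II comparison (left) and the QDG comparison (right), which share the Ang II mice. Filled points passed an adjusted p of 0.05: Atp6v0a4, Atp6v0b and Atp6v1g1 on the left, Atp6v0a4 and Atp6v1a on the right.

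Of 17 further intercalated cell genes, 13 were tested, with 2 called higher and none lower in the Ang II comparison, against 4.95% of all genes called higher, and 3 under an unadjusted p of 0.05, against 22.7%. None was called in the QDG comparison, and none had an unadjusted p under 0.05 there, against 16.4%. Slc26a7, Slc4a8, P2ry14 and Atp12a had no transcript in all 15 mice. The median log2 fold change of the 13 was 0.24 in the Ang II comparison and 0.23 in Ang II + QDG vs. Control, against 0.08 and 0.06 over all genes.

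Hmx2, a homeobox factor of intercalated cells, had means of 4.46, 6.998 and 5.50 FPKM and rose in the Ang II comparison (0.54, SE 0.15, adjusted p = 0.0456).

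Of 14 acid-base genes of other tubule segments, all tested, 2 were called higher and none lower in the Ang II comparison (median 0.02), against 4.95% of all genes called higher. In the QDG comparison 1 was called lower and none higher (median -0.20), against 1.29% of all genes called lower. By unadjusted p under 0.05 there were 7 of 14 in the Ang II comparison and 6 of 14 in the QDG comparison, against 22.7% and 16.4% of all genes.

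Slc4a2, the anion exchanger AE2, rose from 11.9 ± 1.05 to 19.1 ± 2.81 FPKM (SD, n = 5 each) in the Ang II comparison (0.63, SE 0.14, adjusted p = 0.0227), and its value in the QDG comparison was -0.50 (adjusted p = 0.089). The most abundant of its 6 transcripts alone gave -0.94 (SE 0.573, adjusted p = 0.413), and its coding transcripts together 0.53 (SE 0.181, adjusted p = 0.122).

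Several of these calls on list genes lay near the threshold, and leaving out single mice ended them with the fitted values little changed. Atp6v1g1 lost its call in the Ang II comparison without Control replicate 1, 2, 3 or 5 or Ang II replicate 2, 3 or 5 (adjusted p 0.0514 to 0.0742, log2 fold change 0.28 to 0.33). Hmx2 lost it without any Control mouse, Ang II replicate 2, 3 or 5, or Ang II + QDG replicate 1 or 3 (0.0513 to 0.104, log2 fold change 0.47 to 0.59). Slc4a2 lost it without Control replicate 1 or Ang II replicate 2 or 5 (0.0521 to 0.056, log2 fold change 0.57 to 0.62). Conversely, the lower value in the QDG comparison passed for Atp6v0b without Control replicate 1, Ang II replicate 3 or Ang II + QDG replicate 1 (0.039 to 0.0478), and for Atp6v1g1 without Control replicate 4 or Ang II + QDG replicate 1 (0.0203 to 0.0473), and the higher value of Atp6v1a in the Ang II comparison passed without Ang II replicate 1 (0.0454). With median scaling or quantile normalization the rises of Atp6v1g1, Hmx2 and Slc4a2 did not pass (adjusted p 0.0509 to 0.162, log2 fold change 0.23, 0.45 and 0.54 in that order), while that of Atp6v0b did. Hmx2 also missed the threshold with 2 groups in the fit (0.54, adjusted p = 0.0641), the most abundant transcript (0.50, adjusted p = 0.101) or coding transcripts only (0.54, adjusted p = 0.0585), with log2 fold changes near the 0.54 of the full sum.

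Principal cells share the collecting duct with intercalated cells, and none of their 8 markers was called in any comparison. By unadjusted p under 0.05 there were 1 of 8 in the Ang II comparison, 2 in the QDG comparison and 2 between Ang II + QDG and Control mice, against 22.7%, 16.4% and 14.4% of all genes. Their summed level was 201 to 421 FPKM in Control, 195 to 427 in Ang II mice and 281 to 498 in Ang II + QDG mice, a wide overlap. Fitted differences were above 0 for 7 of the 8 in the QDG comparison (median 0.25, against -0.02 over all genes, 46.3% of them above 0) and for all 8 in Ang II + QDG vs. Control (median 0.40, against 0.06, with 62.5% above 0). Aqp2, the vasopressin-regulated water channel, ran from 63.7 to 255 FPKM within the Ang II group alone, and Aqp3 had means of 64.7, 56.9 and 71.8 FPKM in the 3 groups. Macrophage markers, 5 tested of 8, were not called in any comparison and none had an unadjusted p under 0.05. The most abundant were C1qa (13.3, 10.96 and 13.3 FPKM) and C1qb (14.4, 10.3 and 15.1). The part of erythroid, principal or macrophage RNA in the differences of the acid-base genes was not tested.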

How the data were processed

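Total RNA of 15 kidneys was depleted of ribosomal RNA and sequenced as paired ends. The methods of the study also name a poly(A) isolation kit, which the labels do not, and which RNA the libraries held is therefore not settled here. The authors deposited 1 table per mouse of transcripts with an FPKM value. The unit is read from the values: FPKM times length was a whole multiple of a constant per mouse for 98.4% to 98.7% of values under 200 fragments (tolerance 0.05), and the implied fragment totals and the counting error they allow rest on that. Whether these whole numbers are reads or fragments is not known, and they are called fragments here. The labels name mm10 and limma without role or version, and the aligner is not given in the sources used here. Samples were grouped by their labels.

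The tables of Control mice listed 41477 transcripts and those of the other groups 42310, so the lists differed between Control and infused mice. Transcripts listed in all 15 tables (40054, of which 28913 Ensembl) were used. In the alternative with every listed transcript, one missing from a table added nothing to its gene in that mouse. The part of this difference between lists in the comparisons with Control was not tested. Ensembl identifiers were matched to GENCODE M21 (28863 matched) and FPKM summed per gene. The 12366 genes that reached 1 FPKM in 5 or more mice were tested on log2(FPKM + 1) with limma 3.58.1 (lmFit and eBayes with a mean trend, R 4.3.3), two-sided, all groups in 1 fit, with Benjamini-Hochberg adjustment; transcripts (28812) likewise. The procedure was tested on simulated data in which genes varied independently and mice did not differ in scaling. That test therefore cannot show how the calls depend on scaling. Fold changes on this scale understate changes of low genes. Counting error was at most 4.6% of the value for 7 of the 8 genes, and reached 100% for Slc4a9.

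The 9 genes and the lists (other pump subunits, other intercalated cell genes, acid-base genes of other segments, and principal cell, erythroid, macrophage and kidney markers) were chosen with earlier results of these data known. Named were all 9 genes; list genes called in Ang II vs. Control or Ang II + QDG vs. Ang II; the counterparts Atp6v1b2, Atp6v1g1, Atp6v0d1 and Atp6v0a1; the 2 most abundant genes of a list without a call; and, for Slc26a4 and Foxi1, the 5 genes with the highest Pearson r. Slc4a1 had no value for that. Some called list genes are counted but not reported here. Alternatives changed the pseudocount (0.1, 0.01), the filter, the normalization, the groups in the fit, the trend, the transcripts summed, or left out each mouse. Promoters were those of RefSeq (GRCm38.p6).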

Additional observations from a re-analysis of the deposited data

Results flagged for a closer look

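Among 66 groups of 5 mice (24 of genes, the others of single transcripts, also those too low to be tested), 3 held a mouse whose gap to its nearest neighbour was over 0.71 of the range of the group, and chance gives about 5% of groups. Slc4a9 read 0.00535 FPKM in Ang II + QDG replicate 3, against 2.67 to 3.60 in the other 4 mice of that group. The Atp6v0a4 transcript ENSMUST00000040259 read 5.53 FPKM in the same mouse, against 1.36 to 2.47 in the others. A second Atp6v0a4 transcript, ENSMUST00000114908, read 10.8 FPKM in Ang II replicate 5, against 0.0556 to 0.286 in the other Ang II mice.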

How the results depend on the processing

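In Ang II vs. Control 2 of the acid-base genes were called. The number was 0 with quantile normalization, median scaling or only the 2 groups in the fit, 1 (Slc26a4) with the most abundant transcript or coding transcripts only, and 0 to 2 leaving out each mouse in turn. In Ang II + QDG vs. Ang II it was 1, became 0 with median scaling, 2 groups, the most abundant transcript or coding transcripts only, and ran from 0 to 1 leaving out each mouse. In Ang II + QDG vs. Control it was 0 under every alternative run. Slc26a4 and Atp6v0a4 kept their direction in Ang II vs. Control under all 10 alternatives that kept every mouse and all 15 that left out a mouse. Of the values that passed the test and were followed under the alternatives, 1 changed sign, that of Slc4a2 in Ang II vs. Control, -0.94 with its most abundant transcript. The call of Hba-a1 in Ang II + QDG vs. Control was not followed. Values that had not passed changed sign too, among them Car2 (lowest -0.01) and Atp6v0d2 (lowest -0.05) in Ang II vs. Control, and Slc4a2 in Ang II + QDG vs. Ang II (highest 0.21) and vs. Control (lowest -0.73). Genes called over the whole table in Ang II vs. Control were 735, and 472 with median scaling, 460 with 2 groups, 353 with the most abundant transcript, 408 with coding transcripts, and 338 to 797 leaving out a mouse. In Ang II + QDG vs. Ang II 224 became 68 with 2 groups and 53 to 250 leaving out a mouse, and in Ang II + QDG vs. Control 16 became 4 with 2 groups, 80 with every listed transcript, 6 with the most abundant or coding transcripts, and 0 to 110 leaving out a mouse. Transcripts called were 199, 28 and 7 in the 3 comparisons, 108, 11 and 3 without the trend, 13 for the second with median scaling, 16 for the third with 2 groups, and 32 to 387, 10 to 46 and 1 to 23 leaving out a mouse. No paired analysis was possible because replicate numbers were given in accession order and pair no mice.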
